A study of Mus musculus with 8 samples.

Results

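The stage comparison set the ribosome-bound mRNA of Sox9-labelled cells of the mouse lung at embryonic day 17 (E17) against the same kind of sample at E14. It rests on 2 of the 8 libraries of the series, 1 per stage, both from embryonic lung of wildtype C57BL/6 mice. Labelling was induced with tamoxifen, and translating ribosomes were recovered with an antibody step against the ribosomal protein L10, a method called translating ribosome affinity purification (TRAP). The labels name neither the driver of the ribosome tag, nor the day of tamoxifen, nor how many embryos were combined. It is therefore not stated whether the E17 library came from cells that still expressed Sox9 on that day or from descendants of earlier ones. Beside these, the text uses 1 library of whole lung homogenate per stage (E14 and E17), of the same strain and genotype, and 2 wildtype TRAP libraries labelled E16, whose titles also carry E13. The E14 homogenate is called a supernatant in the series' design. The 2 libraries of the Sox9 mutant were not used here.

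Of 24487 gene records, 11794 were compared: those whose mean over both TRAP libraries reached 1 FPKM and whose locus spanned 200 bases or more. FPKM counts fragments per kilobase of a transcript and per library total. All differences below are log2(FPKM + 1) at E17 minus log2(FPKM + 1) at E14, so 1 is a 2-fold change of FPKM + 1, and the change of genes at low FPKM is understated. With 1 library per stage there is no replicate check and no test. A record is called higher or lower where it differed at least 2-fold, and its deposited confidence bounds give the counting error only.

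In the embryonic lung, Sox9 marks the epithelial tips of the branching tree. These tips divide, leave airway cells behind them, and later give rise to the alveolar epithelium. Alveolar type 2 cells make surfactant, the lipid and protein film that keeps air sacs open, and alveolar type 1 cells are the thin cells across which gas is exchanged. Toward birth the distal epithelium fills with glycogen, builds lamellar bodies and acquires transporters that clear lung liquid.

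Genes of the alveolar cell types were higher in the E17 library, led by the surfactant gene Sftpc. Records at least 2-fold higher at E17 numbered 558 (4.73%), and 219 (1.86%) were at least 2-fold lower. With the further condition that the confidence bounds did not overlap, 555 (4.71%) and 216 (1.83%) were left. Larger differences leaned the same way: 96 records were at least 4-fold higher and 24 at least 4-fold lower, and 25 against 9 differed at least 8-fold. Small differences were about balanced, since bounds that did not overlap put 3208 records (27.2%) higher and 3015 (25.6%) lower, and the median difference over all compared records was 0.02. Between the E16 wildtype libraries, the only repeated wildtype TRAP samples, 12 of the same records (0.102%) were 2-fold apart. That pair is of 1 stage, is deeper than E14 TRAP and differs in makeup from both compared libraries, as given below. Its share is therefore not a measure of the spread between the E14 and E17 libraries.

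**Figure D1:**
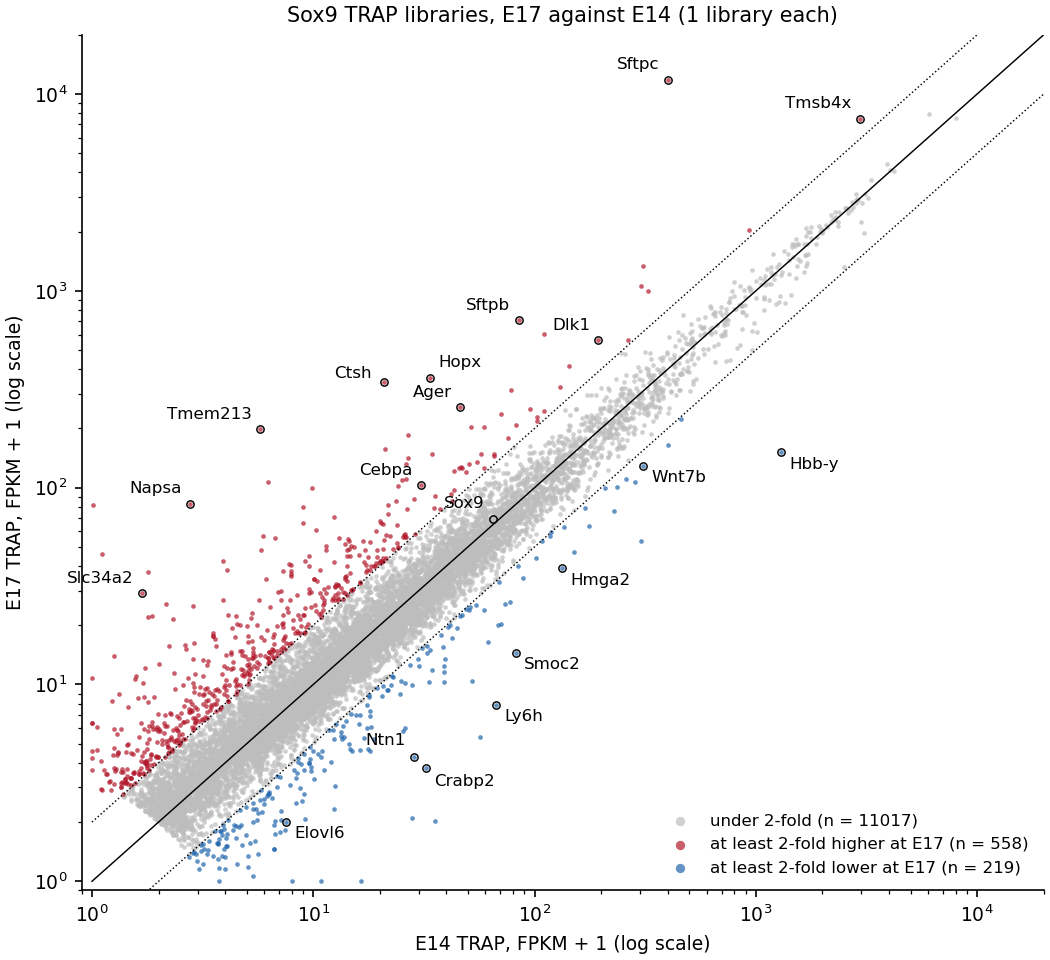
Each point is 1 of the 11794 compared records, with FPKM + 1 in the E14 TRAP library on the x axis and in the E17 TRAP library on the y axis, both on log scales; the solid line marks equal values and the dotted lines 2-fold. Red points (558) extend far above the upper dotted line for Sftpc, Napsa and Tmem213, while Sox9 lies near the line of equal values and Hmga2, Wnt7b and Hbb-y lie below the lower one.

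The values rest on 9783768 fragments in E14 TRAP and 15504704 in E17 TRAP, and on 16227391 to 21500523 in the other libraries used, as computed from the bounds. In E17 TRAP the short microRNA record Mir762 held 34.0% of the FPKM total and was listed at 0 in E14 TRAP. Mir762 also held 50.05% of the total in the first E16 library and was at 0 in the second. Between those E16 libraries 12 compared records (0.102%) were 2-fold apart without rescaling. Rescaling E14 and E17 TRAP to a common total with Mir762 included moved the median of all records to -0.43. That gave 257 records 2-fold higher and 893 lower, in place of 558 and 219. The share of higher calls was then 22.3% against 71.8%. Under it the medians of 21 of 43 gene lists changed sign, among them the tip progenitor, transcription factor, BMP and TGF-beta, FGF, fatty acid, pan-epithelial, mesenchyme and hypoxia lists. Those of the alveolar, transporter, defence, glucocorticoid, glycogen, endothelium, replication and sterol lists did not. Over records of at least 200 bases alone, the totals of E14 and E17 TRAP were 634372 and 653031 FPKM. Rescaling to a common total of those records gave 517 records higher and 244 lower, and 3 of 43 list medians changed sign. Which scaling is right was not tested. Every list difference below is best read relative to the median of all records. In the E16 libraries cytosolic ribosomal protein mRNAs held 21.0% and 21.8% of the FPKM of records of at least 200 bases, against 14.8% at E14 and 14.7% at E17, so E16 levels are given beside the others with this difference in makeup.

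Sox9 itself did not pass 2-fold, at 63.9 FPKM in E14 TRAP and 68.5 in E17 TRAP (difference 0.10, counting bounds 0.03 to 0.16). It was 35.9 and 36.4 FPKM in the E16 libraries, below both other stages. The record lies on chromosome 11, from 112782210 to 112787757 (mm10).

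Surfactant and other alveolar type 2 genes held the largest group of gains. Of 34 genes listed for this cell type, 33 had a record, 30 passed the filter, 20 were at least 2-fold higher and 0 lower, beside 4.73% and 1.86% of all records. Their median difference was 1.73 beside 0.02 for all records. Their summed level went from 0.259% to 2.39% of the FPKM total of records of at least 200 bases. Sftpc alone held 0.0630% of that total at E14 and 1.81% at E17. The low records S100g, Hc and Chia1 stayed under the filter.

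Sftpc, which encodes surfactant protein C, had 400 FPKM at E14 (bounds 385 to 414), 3788 and 4487 in the E16 libraries and 11835 at E17 (bounds 11774 to 11896). The other 3 wildtype TRAP libraries lay below the E17 value, and the E14 value was the lowest of the 4. The E17 level was 29.5 times the E14 level as FPKM + 1 (difference 4.88, SE 0.03 from counting). Sftpc thereby went from rank 248 to rank 1 among all records of at least 200 bases and from 0.0630% to 1.81% of their total. Its record spans 70520942 to 70524081 on chromosome 14. Of the 10 most abundant named records 1 other passed 2-fold: Tmsb4x, which encodes the actin-binding thymosin beta 4, had 2955 FPKM at E14, 8340.2 and 8478 at E16 and 7472 at E17 (1.34).

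Genes for proteases that process surfactant proteins B and C were higher at E17 along with Sftpc, and so was Sftpb. Napsa, an aspartic protease of the lamellar body, had 1.77 FPKM at E14, 10.4 and 9.41 at E16, and 81.7 at E17 (4.90, SE 0.17). Ctsh, a cysteine protease of the same compartment, had 19.98, then 96.5 and 91.2, then 344 FPKM (4.04, SE 0.07). Sftpb, which encodes surfactant protein B, had 83.7 FPKM at E14, 168 and 137 at E16 and 709 at E17 (3.07). In each of these the E16 libraries sat between the others, closer to E14 than to E17 in FPKM.

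In Slc34a2, Lamp3 and Abca3, the E16 values lay nearer to E14 than to E17. Slc34a2, a sodium-phosphate transporter of type 2 cells, had 0.677 FPKM at E14, 1.95 and 1.64 in the E16 libraries and 28.2 at E17 (4.12, SE 0.10). Lamp3, a lamellar body membrane protein, had 3.07, then 6.53 and 5.64, then 37.2 FPKM (3.23). Abca3, the transporter that loads lipid into lamellar bodies, had 13.4, then 18.1 and 15.7, then 53.9 FPKM (1.93). In all 3 genes the E17 library stood apart from the other wildtype TRAP libraries, which lay together at low values.

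Some type 2 genes were not called higher. Sftpd, which encodes surfactant protein D, had 3.88 FPKM at E14 and 2.55 at E17 with overlapping bounds, while in whole lung its difference was 0.78. The lysozyme genes Lyz1 and Lyz2 had overlapping bounds, as did Scd1 and Fabp5. Etv5 (343 against 281 FPKM) and Fasn (73.0 against 50.9 FPKM) had lower values at E17 without reaching 2-fold. Sftpa1, for surfactant protein A, was called higher, with 9.77 FPKM at E14, 7.13 and 6.54 at E16 and 37.2 at E17 (1.82).

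Since Sftpb lies in the group that gained most, the 200 bases before its RefSeq start are printed here (chr6:72304410-72304609, plus strand, GRCm38.p6), with capitals at matches to CTCAAG, a core written for NKX2 family factors such as NKX2-1.
Sftpb: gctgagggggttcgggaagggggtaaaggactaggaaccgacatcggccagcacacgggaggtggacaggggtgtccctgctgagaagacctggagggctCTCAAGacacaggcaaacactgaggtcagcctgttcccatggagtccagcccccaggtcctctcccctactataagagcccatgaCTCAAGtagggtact
The 2 matches begin 100 and 15 bases before the start. The letters, searched on both strands, occur in 16.2% of all 27025 RefSeq windows of 300 bases, so a match is common. Nkx2-1 itself had 315 FPKM at E14 and 491 at E17 (0.64), under 2-fold.

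**Figure D2:**
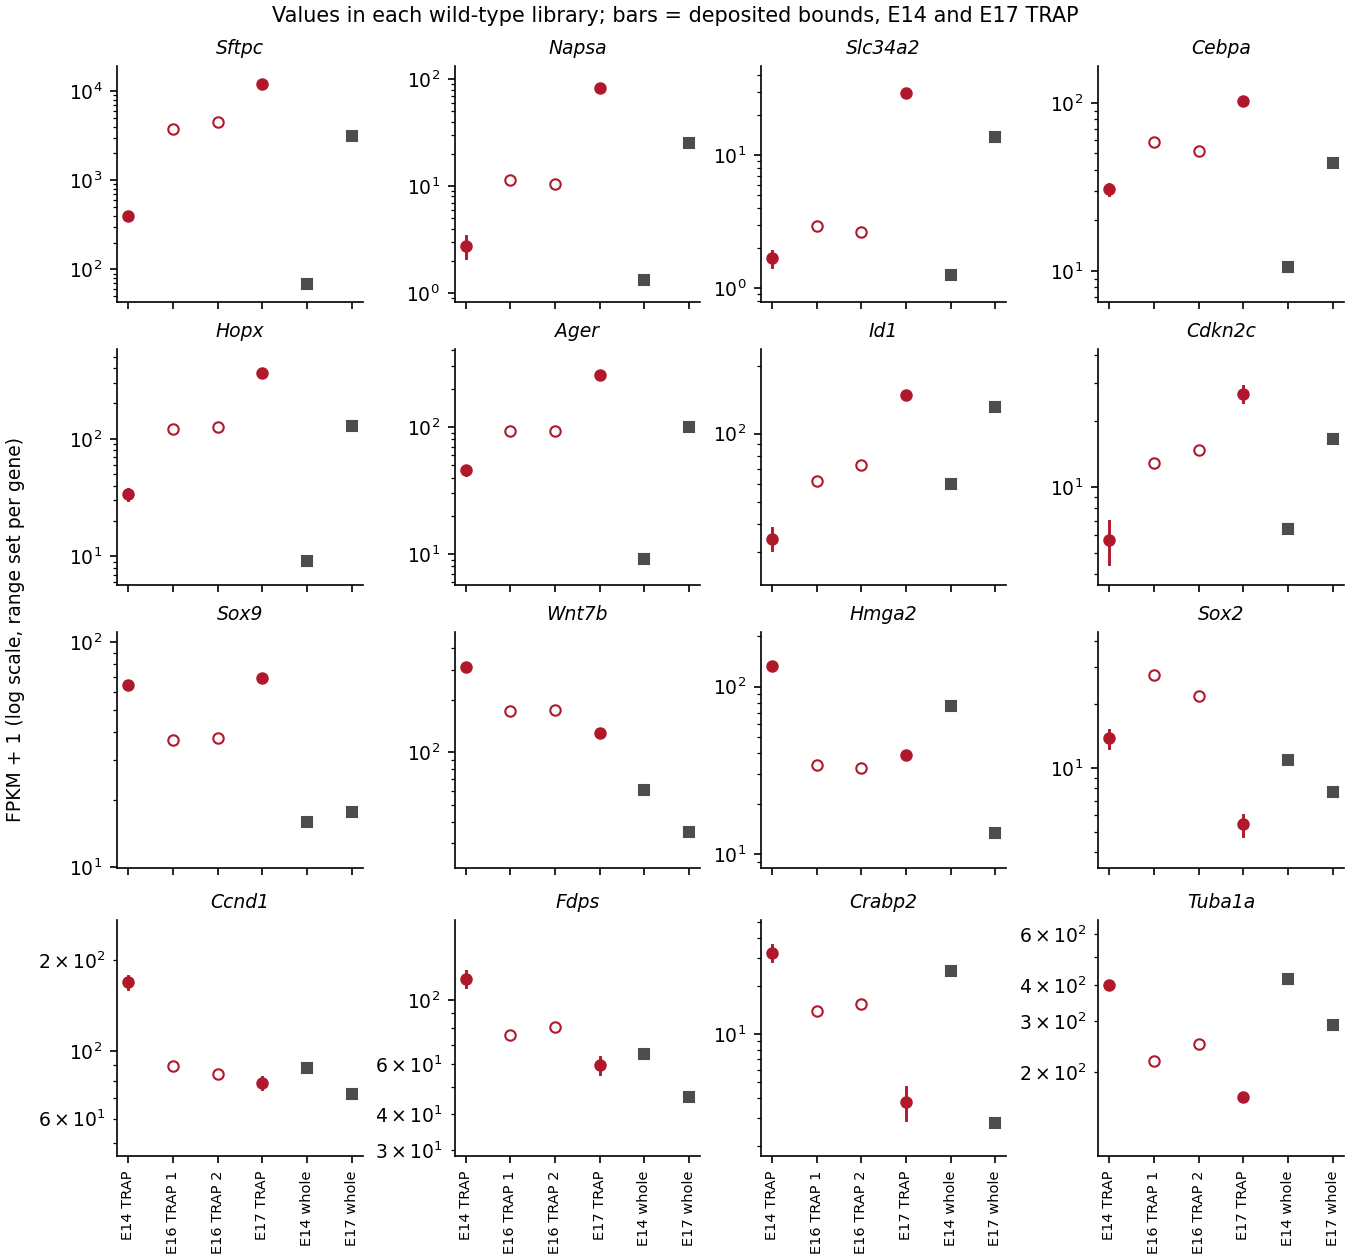
FPKM + 1 on a log scale, with its range set for each gene, for 16 genes in the 4 wildtype TRAP libraries (circles, open for E16) and the 2 whole lung libraries (squares); vertical bars are the deposited confidence bounds of E14 and E17 TRAP. Sftpc climbs from 400 FPKM at E14 to 11835 at E17, Slc34a2 stays under 2 FPKM until E16, and Hmga2 is already near its E17 level in the E16 libraries.

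Genes of the alveolar type 1 cell were higher in the same library. Of 25 listed genes 22 passed the filter, 14 were at least 2-fold higher and 0 lower (4.73% and 1.86% of all records), with a median of 1.28. Hopx, a homeodomain protein without DNA binding, had 32.7 FPKM at E14, 121 and 125 at E16 and 362 at E17 (3.43, SE 0.08). Ager, the receptor for advanced glycation end products, had 44.9, then 91.8 and 91.2, then 255 FPKM (2.48). Emp2, a membrane protein, had 5.73, then 29.7 and 33.0, then 54.7 FPKM (3.05). In these genes the E16 pair lay between the flanking stages.

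The remaining type 1 genes were mixed. Pdpn, the podoplanin gene, had 25.6 FPKM at E14, 28.2 and 26.5 at E16 and 77.2 at E17 (1.55). The caveolin genes Cav1 (2.06) and Cav2 (1.66) were higher at E17, and both are also expressed by endothelium, whose markers are given further down. Vegfa, the endothelial growth factor gene, had 20.9 and 41.3 FPKM and just missed 2-fold (0.95). Aqp5, the water channel often used to mark mature type 1 cells, was under the filter at 0.753 and 0.874 FPKM. Igfbp2 (625 and 602 FPKM) and Sema3e (10.6 and 10.6 FPKM) had overlapping bounds.

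The 20 largest gains also held genes of other kinds. Tmem213, a small membrane protein gene, had 4.75 FPKM at E14, 45.9 and 48.6 at E16 and 197 at E17 (5.11, SE 0.26). Clic3, an intracellular chloride channel family gene, had 5.25, then 43.9 and 53.0, then 106 FPKM (4.10). S100a14, a calcium-binding protein gene, had 0.796, then 23.6 and 21.1, then 36.5 FPKM (4.38). For S100a14 the E16 level was nearer to E17 than to E14, unlike Slc34a2. Ptgs1 (3.59), which makes prostaglandin precursors, Areg (3.56), an EGF receptor ligand, Dhrs7 (3.45), Kctd14 (3.47), Ass1 (3.43), Muc1 (3.34), a mucin gene of the type 2 list, Col15a1 (3.21), Cryab (3.15) and Fgf1 (3.13) complete the leading genes, with 2 sets of copied genes that are described last. Lgals3 and Sec14l4, named after their values were seen, were among 9 records that went from under 1 to over 10 FPKM, at 0.729 to 11.1 and at 0.576 to 10.1 FPKM.

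Most transcription factors stayed within 2-fold. Of 38 factors past the filter 8 were higher and 1 lower, beside 4.73% and 1.86% of all records. Elf5, an ETS factor, had 6.91 FPKM at E14, 17.3 and 15.4 at E16 and 39.3 at E17 (2.35). Cebpa, a regulator of type 2 cell maturation, had 29.7, then 57.8 and 50.5, then 102 FPKM (1.75). Its relative Cebpb had 58.1, then 185 and 176, then 203 FPKM (1.79), so that E16 was close to E17. Nfia (1.56), Nfib (1.29), Klf5 (1.24) and Ehf (1.17) were the others that passed, with Hopx.

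The factors that set early lung identity stayed within 2-fold. Foxa1 had 133 and 117 FPKM and Foxa2 88.8 and 82.9 FPKM with overlapping bounds. Gata6, Foxp2 and Srebf1 also had overlapping bounds. Sox2, which marks the airway rather than the tip, was the factor that passed downward, at 12.8 FPKM at E14 and 4.40 at E17 (-1.35). The E16 pair, at 26.4 and 21.0 FPKM, lay above both. Sox4 (172 and 96.5 FPKM), Foxp4 (-0.58) and Sox11 (-0.67) were lower without reaching 2-fold.

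Few tip progenitor genes passed 2-fold. Of 24 listed genes 20 passed the filter, 2 were higher and 2 lower (4.73% and 1.86% of all records), and the median was 0.18. Under the common total of all records 0 were higher and 4 lower. Hmga2, a chromatin protein of early growth, had 132 FPKM at E14, 33.2 and 31.8 at E16 and 37.9 at E17 (-1.77, SE 0.03). Wnt7b, the epithelial Wnt ligand, had 307, then 171 and 176, then 128 FPKM (-1.25, SE 0.05). Clu (1.33) and Cpm (1.25) were higher at E17. Between them lay Bmp4 (116 and 150 FPKM), Id2 (336 and 447 FPKM), Fgfr2 (91.8 and 124 FPKM) and Mycn (64.0 and 43.2 FPKM), all under 2-fold, and Etv4 (21.1 and 21.0 FPKM), whose bounds overlapped. Lgr5, a Wnt-related receptor under the filter, had 1.59 and 0.188 FPKM.

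**Figure D3:**
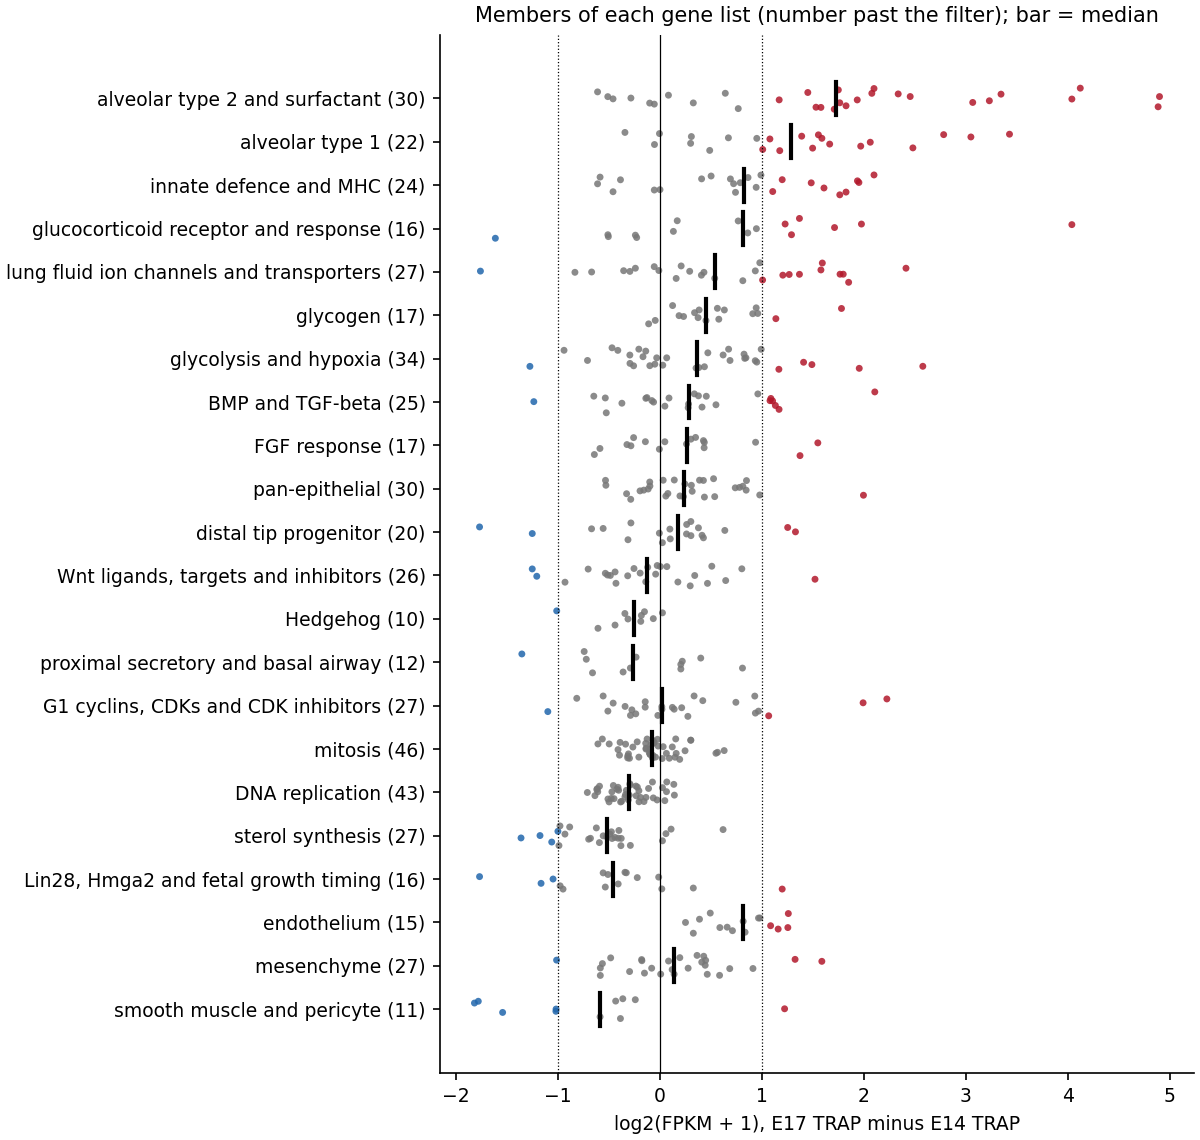
Each dot is 1 gene of a list that passed the filter, placed by its log2(FPKM + 1) difference between E17 and E14 TRAP; black bars are list medians, dotted lines mark 2-fold, and red and blue dots lie beyond it. Alveolar type 2 genes spread up to 4.90 with a median of 1.73, DNA replication genes crowd just below 0 (median -0.31), and the sterol list is shifted to -0.52.

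Some BMP and TGF-beta genes were higher. Of 25 past the filter 6 were at least 2-fold higher and 1 lower, beside 4.73% and 1.86% of all records. Under the common total of all records 1 was higher and 3 were lower. Id1, a target of BMP signalling, had 33.4 FPKM at E14, 61.0 and 71.9 at E16 and 147 at E17 (2.11, SE 0.08), in ascending order of stage. Fstl1 (1.17), Smad9 (1.13), Tgfbr2 (1.10), Tgfb1 (1.09) and the Id1 relative Id3 (1.08) also passed, and the BMP antagonist Chrd was lower (-1.24). Tgfb1 was lower in both E16 libraries, at 3.92 and 5.61 FPKM, than at E14 (8.51) or E17 (19.2).

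Few genes of the FGF, Wnt, Notch and Hedgehog lists passed 2-fold. Over all records 4.73% were higher and 1.86% lower. The FGF list had 11.8% higher and 0% lower, Wnt 3.85% and 7.69%, Notch 5.56% and 5.56%, and Hedgehog 0% and 10%. Such small counts were not tested against the shares of all records. In the FGF list 2 of 17 passed upward, Fgf9, a ligand gene (0.984 and 4.80 FPKM), and the early response gene Ier3 (1.37); Fgfr1 was at -0.64. For Wnt 1 of 26 was higher and 2 lower: Wnt7a (1.52), Wnt7b, and Notum (-1.21), an enzyme that inactivates Wnt ligands. In the Notch list Dlk1, a noncanonical ligand, had 193 FPKM at E14 and 560 at E17 (1.53), and Notch3 was lower (-1.02), the 2 that passed among 18. The YAP and TEAD list had 1 of 15 higher, the coactivator gene Wwtr1 (1.07), and 1 lower, the receptor kinase gene Axl (-1.35). Hedgehog genes all lay close to or below 0, with 0 of 10 higher, 1 lower and a median of -0.25. By bounds that did not overlap 6 were lower and 0 higher, beside 25.6% and 27.2% of all records. Shh, the ligand that the epithelium makes, had 99.2 and 79.6 FPKM, and the effector gene Gli3 had 7.45 and 5.66 FPKM (-0.34).

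Growth control shifted at specific genes. Ccnd1, which encodes cyclin D1, had 168 FPKM at E14, 88.4 and 83.1 at E16 and 77.8 at E17 (-1.10). Inhibitors of its kinases were higher: Cdkn2c had 4.72, then 11.9 and 13.8, then 25.7 FPKM (2.23, SE 0.17), and Cdkn2b had 1.38, then 2.54 and 2.38, then 8.45 FPKM (1.99). Cdkn1b was at 1.07. In all, 3 of 27 G1 genes were higher and 1 lower, beside 4.73% and 1.86% of all records. Their median was 0.02, the same as over all records.

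DNA replication genes differed by less than 2-fold. None of the 43 reached 2-fold in either direction, beside 4.73% higher and 1.86% lower over all records. With bounds that did not overlap 29 were lower and 0 higher, beside 25.6% and 27.2% of all records. Their median was -0.31 in TRAP and -0.31 in whole lung. Mcm2, a subunit of the replicative helicase, had 81.3 FPKM at E14, 46.9 and 43.7 at E16 and 49.3 at E17 (-0.71, SE 0.04). Uhrf1 (-0.62), Pold1 (-0.64), Rrm2 (-0.61) and Cdc6 (-0.61) followed, while Prim1 (0.14), Tk1 (0.06) and Tyms (0.02) had overlapping bounds. Of 46 mitosis genes, 9 were higher and 17 lower by bounds, with a median of -0.08. Espl1 (-0.61), Incenp (-0.56) and Cenpf (-0.50) lay below 0, and Mki67 (7.44 and 11.4 FPKM, 0.55) and Cdc25b (0.63) above it. The difference between the replication and mitosis lists was not tested.

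For the replication list, 2 upstream stretches are shown, with capitals at matches to TTTGGCGC or TTTCCCGC on either strand, letters written for E2F factors, which drive genes of S phase. The stretch for Mcm6 is chr1:128359706-128359905 (minus strand) and that for Mcm5 is chr8:75109309-75109508 (plus strand), both in GRCm38.p6. RefSeq starts lie 49 and 19 bases from those of the deposited records.
Mcm6: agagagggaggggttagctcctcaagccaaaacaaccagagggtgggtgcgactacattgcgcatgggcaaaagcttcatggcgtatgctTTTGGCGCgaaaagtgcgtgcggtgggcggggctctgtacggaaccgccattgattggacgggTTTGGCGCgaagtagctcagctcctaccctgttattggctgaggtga
Mcm5: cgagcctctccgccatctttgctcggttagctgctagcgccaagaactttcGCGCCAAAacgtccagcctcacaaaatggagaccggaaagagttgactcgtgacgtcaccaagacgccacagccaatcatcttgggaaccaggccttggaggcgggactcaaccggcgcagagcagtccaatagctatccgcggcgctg
Matches begin 110 and 47 bases before the start in Mcm6 and 149 bases before it in Mcm5. In the whole windows of 300 bases the letters occur in 10 of the 35 replication genes with a RefSeq window (28.6%), in 3.26% of all compared records with a window, and in 1.63% of all RefSeq windows. Mcm6 had 101 FPKM at E14 and 70.5 at E17 (-0.51), and Mcm5 had 93.2 and 67.7 FPKM (-0.46).

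Several genes of the fetal growth program around Lin28 were lower. Of 20 listed genes 16 passed the filter, and 3 were lower and 1 higher, beside 1.86% and 4.73% of all records. By bounds 11 were lower and 2 higher, beside 25.6% and 27.2%, and the median was -0.46. Lin28a and Lin28b, which block maturation of let-7 microRNAs, were under the filter, with 0.434 and 0.457 FPKM at E14 and 0.0582 and 0 at E17. Hmga2 is a let-7 target. Igf2bp1, which binds growth factor mRNAs, had 16.6 FPKM at E14, 5.90 and 5.71 at E16 and 6.83 at E17 (-1.17), and its relatives Igf2bp2 (-0.98) and Igf2bp3 (-0.51) were lower without reaching 2-fold. Like Hmga2, Igf2bp1 was at about its E17 level in both E16 libraries. The 1 higher member was the noncoding Rian (1.20).

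Sterol synthesis was the metabolic list with the most lower members. Of 27 genes, all past the filter, 4 were at least 2-fold lower and 0 higher, beside 1.86% and 4.73% of all records. By bounds 22 were lower and 1 higher, beside 25.6% and 27.2% of all records. The median was -0.52 in TRAP and -0.39 in whole lung. Fdps, which makes farnesyl pyrophosphate, had 118 FPKM at E14, 74.6 and 79.4 at E16 and 58.4 at E17, which passed 2-fold. Msmo1, a later step of the pathway, had 17.9, then 14.6 and 14.5, then 8.57 FPKM (-0.98), just under it. In both genes the E17 library held the lowest value of the 4 wildtype TRAP libraries. Srebf2, which encodes the transcription factor of this pathway, had 62.8 and 38.3 FPKM (-0.70), and Insig2, which holds that factor inactive, was the higher member (0.62).

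Hmgcs1, just under 2-fold at 42.4 and 20.8 FPKM (-0.99), is shown for the site of that factor. Capitals mark TCACNCCAC, a sterol response element core, in the 200 bases before the RefSeq start (chr13:119690151-119690350, plus strand, GRCm38.p6).
Hmgcs1: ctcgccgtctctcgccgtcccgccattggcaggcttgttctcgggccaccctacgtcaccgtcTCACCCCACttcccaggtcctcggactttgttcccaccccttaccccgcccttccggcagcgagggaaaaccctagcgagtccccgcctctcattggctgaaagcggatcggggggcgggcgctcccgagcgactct
The match begins 137 bases before the start, and the letters occur on either strand in 1.22% of all RefSeq windows.

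Most fatty acid and phospholipid genes stayed within 2-fold. Of 46 genes 40 passed the filter, 6 were higher and 1 lower (4.73% and 1.86% of all records), and the median was 0.20. Under the common total of all records 2 were higher and 6 lower. Among the higher genes was Lpcat1, which remodels phosphatidylcholine, the main surfactant lipid, with 42.4 FPKM at E14, 67.3 and 61.9 at E16 and 96.5 at E17 (1.17). Chpt1, which encodes an enzyme of the last step of phosphatidylcholine synthesis, had 7.08, then 22.8 and 21.3, then 20.2 FPKM (1.39). Agpat2 (1.04), Cd36 (1.71), a fatty acid carrier, Me1 (1.61), which supplies reducing power, and Mid1ip1 (1.45) were the others. Elovl6, which lengthens saturated fatty acids, had 6.55, then 3.90 and 2.42, then 1.01 FPKM (-1.91). The desaturases Fads1 (-0.72) and Fads2 (-0.70) and the fatty acid synthesis genes Acaca (-0.56) and Fasn (-0.51) had lower values without reaching 2-fold.

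Most glycogen genes differed by less than 2-fold. Of 17 past the filter 2 were at least 2-fold higher and 0 lower (4.73% and 1.86% of all records). By bounds 11 were higher and 0 lower (27.2% and 25.6% of all records), and the median was 0.45. Ppp1r3c, which targets a phosphatase to glycogen, had 3.25 FPKM at E14, 6.70 and 7.69 at E16 and 13.6 at E17 (1.78), and Pgm2 was at 1.14. Enzymes of synthesis and of breakdown shared the direction, with the synthase gene Gys1 at 0.58 and the liver phosphorylase gene Pygl at 0.94. Of 34 glycolysis and hypoxia genes 5 were higher and 1 lower (4.73% and 1.86% of all records), with a median of 0.37. Their summed level went the other way, from 7654 to 6071 FPKM (1.21% and 0.930% of the total), and with a mean of at least 5 FPKM the median was 0.03. The called genes included Ndrg1 (0.704 and 9.17 FPKM, 2.58), Hif3a (1.95), Epas1 (1.49) and Egln3 (1.41) upward, and the glucose transporter gene Slc2a3 downward (-1.28).

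Of 27 genes for the transport of lung liquid 10 were higher and 1 lower, beside 4.73% and 1.86% of all records, with a median of 0.54. Atp1b1, the beta subunit of the sodium pump, had 25.7 FPKM at E14, 32.1 and 27.3 at E16 and 141 at E17 (2.41, SE 0.07). E16 was thus near E14, as for Slc34a2. Scnn1a, the alpha subunit of the epithelial sodium channel, had 1.13, then 1.67 and 1.56, then 5.41 FPKM (1.59), while Scnn1b (1.04 and 1.76 FPKM) had overlapping bounds and Scnn1g (0.41) was under 2-fold. The chloride channel gene Cftr had 3.48 and 3.31 FPKM with overlapping bounds. Aqp4, a water channel gene, had 4.44, then 1.47 and 1.58, then 0.607 FPKM (-1.76).

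A minority of defence and hormone response genes were higher. Of 24 defence and MHC genes past the filter, of 45 with a record, 9 were higher and 0 lower, beside 4.73% and 1.86% of all records. Among them were Cd14 (1.93 and 10.3 FPKM, 1.95), the chemokine gene Cxcl15 (19.02 and 67.0 FPKM, 1.76), Il33 (2.10) and Cd74 (1.48). Cd74 is also expressed by leukocytes. In the glucocorticoid list 6 of 16 were higher and 1 lower, beside the same shares of all records. The 6 included Ctsh (4.04), which is also counted in the type 2 list, and Aqp1 (1.37). The metallothionein genes Mt1 (50.7 and 202 FPKM) and Mt2 (19.2 and 65.0 FPKM) were also among the 6. At E16, however, Mt1 was at 229 and 267 FPKM, above E17. Per1, a clock gene that glucocorticoids induce, had 4.75, then 4.74 and 4.55, then 13.1 FPKM (1.29). The receptor gene Nr3c1 was at 0.86, and Hsd11b2, whose enzyme inactivates glucocorticoids, was the lower gene, at 9.09 and 2.30 FPKM (-1.61). Fkbp5 (-0.51) and Tsc22d3 (overlapping bounds), both textbook targets, were not called higher. Immediate early genes had 5 of 16 higher and 0 lower, led by Junb (3.78 and 13.1 FPKM). With a pseudocount of 5 FPKM, and likewise under the common total of all records, 1 of 16 was higher.

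The largest losses were a varied group. Crabp2, which carries retinoic acid, had 31.2 FPKM at E14, 12.9 and 14.4 at E16 and 2.79 at E17 (-3.09, SE 0.19). Ntn1, a secreted guidance protein, had 27.6, then 13.9 and 13.99, then 3.26 FPKM (-2.75, SE 0.07), and Ly6h had 66.0, then 27.4 and 34.9, then 6.91 FPKM (-3.08). All 3 descended in order of stage. Smoc2 (-2.51), the sulfatase gene Sulf2 (-2.33), Cpe (-2.42), Afp (-2.20), Fsd1 (-2.18), Necab2 (-2.15), the cartilage collagen gene Col2a1 (-2.13), Ccdc80 (-2.12), Ffar4 (-2.03), Clip3 (-2.03), Hs3st6 (-1.996) and C1qtnf2 (-1.94) followed. Hs3st6 was higher in both E16 libraries (10.6 and 11.2 FPKM) than at E14 (6.11 FPKM). H2-Q2 (-1.98) belongs to a family of near-identical genes and is uncertain.

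Secretory and basal airway genes had a lower median difference in TRAP than in whole lung. Of 24 secretory and basal genes 12 passed the filter, and their median was -0.26 in TRAP but 0.80 in whole lung. In TRAP 0 were called higher and 1 (Sox2) lower, beside 4.73% and 1.86% of all records. In a list of 12, 0 higher is near that share. Scgb1a1, the club cell secretoglobin gene, had 400 FPKM at E14 and 239 at E17 in TRAP (-0.74), against 173 and 228 FPKM in whole lung (0.39). Foxj1, the master factor of multiciliated cells, had 2.25 and 4.60 FPKM in TRAP and 1.01 and 16.4 FPKM in whole lung. Keratin 15 went in opposite directions and is taken up in the closing section. Of 11 multiciliated genes past the filter 2 were higher, Dynlrb2 and Lrrc23, and 1 was lower, Tuba1a (399 and 164 FPKM), an alpha tubulin gene that many cells express (4.73% and 1.86% of all records). Neuroendocrine genes had 0 of 4 higher and 1 lower, Ddc (11.7 and 5.30 FPKM), too few to set against the shares of all records.

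Ribosomal protein and respiratory chain genes stayed near 0. None of 54 cytosolic ribosomal protein genes and none of 57 nuclear respiratory chain genes reached 2-fold in either direction, with medians of 0.03 and 0.01. Beside these lists and those that follow, 4.73% of all records were higher and 1.86% lower. Secretory pathway and unfolded protein genes had 3 of 39 higher and 0 lower (Kdelr3, Trib3 and Herpud1), with a median of 0.07. Antioxidant genes had 0 of 27 higher and 1 lower, Gpx2 (72.8 and 24.6 FPKM, -1.53), while Cat just missed 2-fold (0.99). Imprinted and IGF genes had 4 of 27 higher and 1 lower; Igfbp6, Igfbp7, Dlk1 and the noncoding H19 (143 and 413 FPKM) were higher and Slc38a4 lower. Basement membrane genes had 4 of 33 higher, among them Npnt (13.4 and 47.7 FPKM), and 3 lower, among them Lama1 (-1.04). Cartilage genes and known SOX9 targets had 3 of 14 higher, Cytl1, Col9a1 and Col9a3, and 1 lower, Col2a1 (24.4 and 4.83 FPKM). Their median was -0.11, but 0.92 over the 6 genes with a mean of at least 5 FPKM. Under the common total of all records 0 of 14 were higher and 3 lower.

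Markers of cells outside the epithelium were read in the same libraries, since a pulldown carries some RNA of other cells and fewer cells cannot be told apart from less RNA per cell. General epithelial markers differed little: 1 of 30, Cldn18 (77.6 and 312 FPKM), was higher and 0 were lower, Epcam had 366 and 300 FPKM, and the sum was 0.544% and 0.628% of the FPKM total. In whole lung the same list had a median of 0.86, against 0.24 in TRAP. Tight junction genes had 1 of 17 higher, again Cldn18, and 0 lower. Mesenchymal markers summed to 0.0742% at E14 and 0.0794% at E17, with 2 of 27 higher and 1 lower. In whole lung that sum was 0.373% and 0.574%. Smooth muscle markers summed to 125 and 59.7 FPKM, with 5 of 11 lower and 1 higher, led by Actg2 (15.3 and 3.63 FPKM).

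Some endothelial markers were higher in the E17 library. Of 15 past the filter 4 were higher and 0 lower, beside 4.73% and 1.86% of all records. With a pseudocount of 5 FPKM, and likewise under the common total of all records, 0 of 15 were higher. By bounds 13 were higher and 0 lower (27.2% and 25.6% of all records), and the sum went from 102 to 181 FPKM in TRAP and from 535 to 973 FPKM in whole lung. The median was 0.82 in both. Pecam1, which defines the type, had 3.53 and 9.11 FPKM in TRAP and 35.7 and 72.3 FPKM in whole lung, and no marker of the list was at 0. Leukocyte markers summed to 16.1 and 24.1 FPKM with 1 of 7 higher (Tyrobp), and the pan-leukocyte gene Ptprc was at 0.0159 and 0; of the listed leukocyte records 3 were at 0 at E14 and 1 at E17. Mesothelial markers had 0 of 5 past 2-fold, cardiac markers 1 of 5 higher (Myh7) and nuclear noncoding RNAs 1 of 5 higher (Rian). The part of these cells in the gains of Cav1, Cav2, Aqp1, Epas1 and Cd74 was not tested. For Sftpc, Napsa and Slc34a2 the E17 level in TRAP was above that in whole lung (3133, 24.6 and 12.7 FPKM).

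The stage difference in whole lung, which shares no library with the TRAP difference, followed a similar course. On the same records, 509 (4.32%) were at least 2-fold higher in whole lung at E17 and 98 (0.831%) lower. Of the 558 higher in TRAP, 289 were also higher in whole lung, which is 51.8% of the TRAP calls and 56.8% of the whole lung calls. For lower calls the overlap was 47, or 21.5% of the TRAP calls and 48.0% of the whole lung calls. Across the 11794 records, which share depth and gene length effects and are not independent replicates, the Pearson correlation of the differences was 0.74 and the Spearman correlation 0.70. Sftpc (5.50), Napsa (4.27), Slc34a2 (3.44) and Hopx (3.81) gained by similar amounts in whole lung.

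Some TRAP gains had no counterpart of that size in the organ. Nfib was at 1.29 in TRAP and 0.06 in whole lung, Il33 at 2.10 and 0.07, Me1 at 1.61 and 0.37, Car2, a carbonic anhydrase gene, at 1.85 and 0.41, and Chpt1 at 1.39 and 0.30. Losses with the same form were Ccnd1 (-1.10 and -0.28), Ccdc80 (-2.12 and -0.31) and Cpe (-2.42 and -0.41). With 1 library per stage and fraction, these differences between fractions were not tested.

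**Figure D4:**
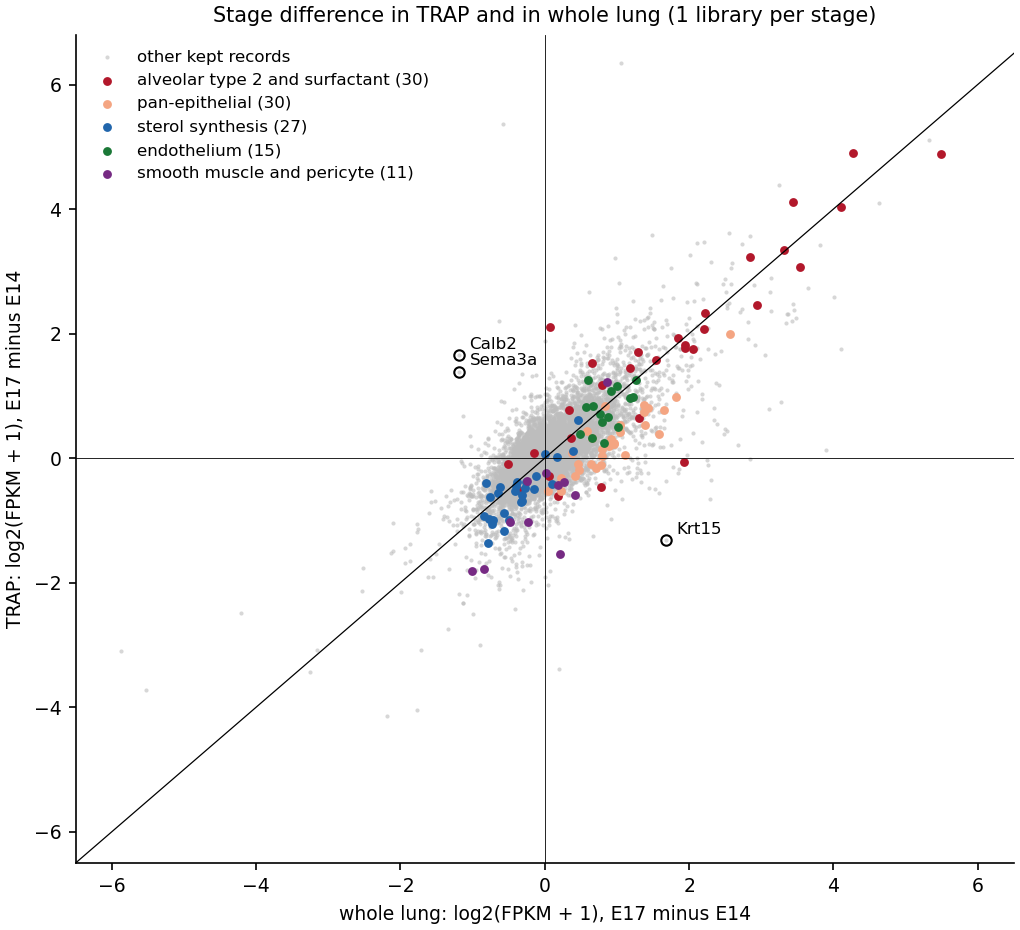
Each point is 1 compared record, with the E17 minus E14 difference of log2(FPKM + 1) in whole lung on the x axis and in TRAP on the y axis; the diagonal marks equal differences. Alveolar type 2 genes (red) follow the diagonal upward, pan-epithelial genes (orange) lie below it with medians of 0.86 in whole lung and 0.24 in TRAP, and Krt15, Sema3a and Calb2 lie in opposite quadrants.

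The E16 libraries mostly fell between the flanking stages. Both of their values lay between E14 and E17 for 429 of the 558 higher records (76.9%) and for 171 of the 219 lower ones (78.1%). The mean of the pair had covered a median share of 0.51 of the log2 distance for higher records and 0.52 for lower ones. In 48 higher records both E16 values were at or below E14, and in 41 they were at or above E17. Abundant short transcripts differed at E16, for instance Rpl41 at 8018 FPKM at E14, 24615 and 25052 at E16 and 7571 at E17, and the part of this in the E16 order was not tested.

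Blood transcripts carried the globin switch. The embryonic genes Hbb-y (1294 and 150.2 FPKM, -3.10), Hba-x (300.2 and 52.9 FPKM, -2.48) and Hbb-bh1 (26.9 and 1.11 FPKM, -3.73) were lower at E17 in TRAP, and in whole lung they differed by -5.87, -4.21 and -5.53. The adult beta-globin records Hbb-b1 (2.11), Hbb-bt (1.80) and Hbb-bs (0.00621 and 80.6 FPKM, 6.34) were higher, but they are near-identical copies whose fragments could be divided in any way, so none of them is certain on its own. The same holds for Eif3j1 (0.115 and 45.1 FPKM) and Eif3j2 (55.7 and 4.42 FPKM), a pair that moved in opposite directions. Erythroid genes summed to 1.04% of the TRAP total at E14 and 1.14% at E17, and to under 0.1% in each E16 library. The Y-linked genes Eif2s3y (9.09 and 9.91 FPKM) and Ddx3y (3.42 and 3.49 FPKM) were present at similar levels in both TRAP libraries.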

How the data were processed

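The authors sequenced mRNA of TRAP and whole lung samples from NEBNext Ultra libraries with L10 immunoprecipitation, per the labels' protocols. Per the submitters' processing notes, the tools were Bowtie2 2.2.3, TopHat2 2.0.14, Cufflinks 2.2.1 and Cuffnorm, and the genome build was mm10. The authors deposited 1 table per library with FPKM values and their confidence bounds, per the file headers. The sources used here do not say how library totals entered the values, which were taken unscaled.

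Records were matched on identifier, locus and start-site group. A record was kept if its mean over E14 and E17 TRAP reached 1 FPKM and it spanned 200 bases or more, and differences were taken on log2(FPKM + 1). The upper bound was read as 2 standard errors above the value, which gave the fragments per library and the counting SE of a difference. In 81.3% of kept records the bounds moved between the libraries by the factor common to all records, to within 0.1 log2, which is what pure counting gives. For the others the SE is less certain. Bounds cover counting error only, not differences between animals. Positions are those of the files, counted from 1.

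Libraries were placed in groups by title. The members and the 43 gene lists were chosen with earlier results of these data known. Named genes were the 20 largest increases and the 20 largest decreases among records that reached 5 FPKM in 1 of both libraries, with bounds that did not overlap. The 10 records highest by mean FPKM were named without a condition on bounds. Predicted, pseudogene and small RNA names were left out of these picks. Up to 6 members per list with the largest absolute difference were named as well, and Sox9 always. Other list members given as contrast, and genes that share a family with a named one, were picked with their values in view. The calculation was tested on simulated fragment counts. Work was done in Python 3.11.15 with pandas 2.3.3 and numpy 2.4.6. Upstream sequences and motif shares come from RefSeq windows of GRCm38.p6, from 250 bases before to 50 after the start, matched by symbol within 1000 bases of the record's start for 8657 of 11794 records. Some members counted in the lists are not reported here by name.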

Additional observations from a re-analysis of the deposited data

Results flagged for a closer look

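Among compared records with at least 5 FPKM in the higher TRAP library, 3 genes moved at least 2-fold in opposite directions in TRAP and in whole lung between E14 and E17. Krt15, a keratin gene of basal and other stratified cells, differed by -1.32 in TRAP (7.33 and 2.33 FPKM) and by 1.68 in whole lung (1.75 and 7.80 FPKM). Sema3a, a secreted guidance protein gene, differed by 1.39 in TRAP (1.94 and 6.70 FPKM) and by -1.18 in whole lung (15.9 and 6.44 FPKM). Calb2, the calretinin gene, differed by 1.66 in TRAP (1.65 and 7.35 FPKM) and by -1.19 in whole lung (16.96 and 6.89 FPKM). For each gene the E16 TRAP values lay between those of E14 and E17 TRAP. Each value comes from 1 library, and the difference between the fractions was not tested.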

How the results depend on the processing

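The counts of 558 higher and 219 lower records were recomputed under 10 alternatives. With a pseudocount of 5 FPKM they were 233 and 65, and with a mean of at least 5 FPKM 363 and 125. With E14 and E17 TRAP rescaled to a common total of all records they were 257 and 893. A pseudocount of 0.1 FPKM gave 813 higher and 329 lower. The other 6 alternatives gave 401 to 585 higher and 187 to 244 lower. Of 154 named genes past 2-fold, 88 stayed past 2-fold with a pseudocount of 5 FPKM and 119 with the common total of all records. None changed sign, but the alternatives could not have shown otherwise. Pseudocounts and filters cannot turn a sign, and the rescalings shifted values by less than 2-fold. The median of a list changed sign for 21 of 43 lists under that common total and for at most 4 under any other alternative. Leaving out a library was not possible with 1 per stage. No paired analysis was possible because each stage has 1 library. The 9783768 fragments of E14 TRAP limit genes at a few FPKM most: of 3195 records with a mean of 1 to 5 FPKM, 195 were higher and 94 lower.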
